A study of Mus musculus with 2 samples.

Results

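The Ly6c2-positive inflammatory monocytes were 138 cells among 36642 cells that passed the quality filters in 2 libraries of dissociated mouse pancreatic tumors. A cell was taken when it held at least 2 unique molecular identifiers (UMIs, each 1 captured RNA molecule) of Ly6c2 and at least 5 of Lyz2, when C1qa, C1qb and C1qc together made up less than 0.3% of its UMIs, and when it held at most 2 UMIs of Krt8, Krt18 and Cdkn2a in all. The control library gave 44 of these cells and the iIRE library 94. Measured values of Ly6c2, Lyz2, the C1q genes and the 3 tumor genes chose the cells, so their levels below are a description.

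Inflammatory, or classical, monocytes are short-lived blood cells that leave the bone marrow through the chemokine receptor Ccr2 and enter inflamed tissue and tumors, where they can mature into macrophages or antigen-presenting cells. In the mouse they carry high surface Ly6C, which Ly6c2 encodes, together with lysozyme (Lyz2). Tissue macrophages in tumors commonly make the complement subunits C1qa, C1qb and C1qc, which is why a low C1q content separates the less mature cells.

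The study compared orthotopic pancreatic tumors with and without insufficient irreversible electroporation (iIRE), in which electric pulses permeabilize membranes but leave part of the tumor alive. FC1199, a mouse pancreatic tumor cell line, was injected into the pancreatic tail of male C57BL/6 mice aged 5 to 7 weeks. Tumors of the iIRE group, 7 to 9 mm across, received 99 pulses of 100 µs at 1000 V and 1 Hz between needles 5 mm apart, and were taken 3 days after treatment. For the control group the study's methods describe needles placed without pulses, whereas its account of these libraries calls the control tumors untreated. Each group was 1 library of 10x 5′ single-cell RNA, the number of mice behind each was not given in the sources used here, and the assignment of the barcode endings to control and iIRE rests on the library names in the labels. A difference between libraries therefore cannot be told apart from a difference between those tumors or preparations, and no test between conditions was possible. Intervals are exact 95% intervals (Poisson for UMIs, Clopper-Pearson for shares of cells) and cover counting error only, although UMIs of a gene are bunched in cells.

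The 2 libraries held 17814 control and 18828 iIRE cells with medians of 8549 and 6798.5 UMIs, and 458 barcode sequences occurred in both. Only 2 monocytes had a barcode sequence found in the other library, and no sequence was a monocyte in both. A doublet caller scored 14.3% of control and 15.1% of iIRE cells as doublets, among them 2 control and 0 iIRE monocytes, and these were kept. For comparison, 3 further sets of Lyz2-bearing or granulocytic cells were gated by fixed UMI rules (814 and 780 C1q-high cells, 115 and 102 neutrophils, 57 and 41 cells high in MHC class II), together with 12880 and 13632 tumor cells, whose median depths were 12931.5 and 9693 UMIs.

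In the control library 0.247% of the cells were monocytes (interval 0.180 to 0.331), and in the iIRE library 0.499% were (0.404 to 0.611). The log2 ratio of the shares, iIRE over control, was 1.02 (0.48 to 1.57). Within the 4 myeloid sets the monocytes were 4.27% of 1030 control cells (3.12 to 5.69) and 9.24% of 1017 iIRE cells (7.53 to 11.2). The share was therefore larger in the iIRE library on both denominators, beyond counting error, with 1 library per group. With each of 12 other settings of the rule or the denominator, the log2 ratio lay between 0.82 and 1.12. Depth was similar in the 2 libraries, with medians of 4940.5 and 5266.5 UMIs and 1910 and 1936.5 genes per monocyte.

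The limits of the rule did not fall in an empty range for every criterion. With all other conditions met, 287 cells had no Ly6c2 UMI, 17 had 1, 15 had 2 and 8 had 3. Plac8 stood at 127 CPM (UMIs of the gene per 1000000 UMIs of the cells) in the cells with no Ly6c2 UMI, 726 CPM in those with 1, 1372 CPM in those with 2 and 1850 CPM in those with 3. The C1q limit cut through a larger group. It left out 16 control and 42 iIRE cells that met every other condition, 6 of them, all iIRE, between 0.3% and 0.4% C1q, while 1 control and 2 iIRE monocytes lay between 0.2% and 0.3%. A Ly6c2 UMI was also found in 1.60% of control and 3.28% of iIRE tumor cells, cells that should lack the gene.

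**Figure D1:**
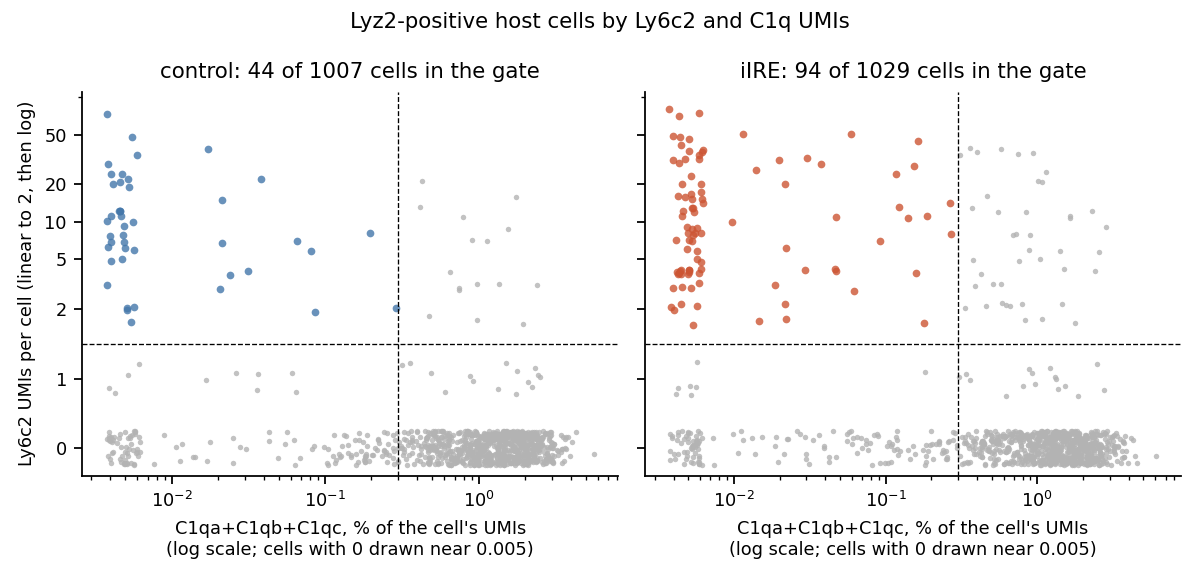
Ly6c2 UMIs against C1q percent of UMIs for each Lyz2-positive cell without tumor markers, by library, with dashed lines at the limits of the rule. The 44 control and 94 iIRE monocytes lie inside the limits. A further 16 control and 42 iIRE cells with enough Ly6c2 lie at or above the C1q limit.

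The monocyte markers were present at high levels in the summed cells but not in every cell. Ly6c2 (chr15:75108158-75111970, minus strand, build GRCm38) had medians of 8 UMIs per cell in the control (2 to 73) and 9 in the iIRE library (2 to 80), and Lyz2 had medians of 61.5 and 54. The other 3 markers were not part of the rule. Plac8, a small protein abundant in monocytes, stood at 2257 CPM (2067 to 2459) in the control and 2551 CPM (2413 to 2695) in the iIRE monocytes, against 39.2 and 117 CPM in the C1q-high cells. Ccr2, the receptor for Ccl2, Ccl7 and Ccl12, stood at 470 CPM (386 to 567) and 577 CPM (512 to 647), against 175 and 165 CPM in the C1q-high cells, 0 in the neutrophils, and 383 and 384 CPM in the cells high in MHC class II. Vcan, a matrix proteoglycan, stood at 181 CPM (131 to 245) and 219 CPM (180 to 264), against 7.37 and 11.9 CPM in the C1q-high cells and 189 and 204 CPM in the tumor cells. Plac8, which stood at 139 and 293 CPM in the cells high in MHC class II, was thus higher in the monocytes than in all 3 other myeloid sets. Ccr2 was higher than in 2 of them, its mean log2 ratio over the class II set was 0.43 and under 1.5-fold, and Vcan was as abundant in tumor cells.

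Ccr2 was found in 39 of 44 control and 79 of 94 iIRE monocytes. With each cell thinned to 2000 UMIs, the share with a Ccr2 UMI was 58.1% and 47.8%, against 0.35% of tumor cells. Vcan was found in 18 of 44 and 44 of 94 monocytes. Plac8 was found in 93.0% and 92.2% of thinned monocytes, but also in 47.4% of thinned tumor cells. Ly6c1 (chr15:75044018-75048830, minus strand), the neighboring paralog that marks vessels and other tissue cells, had 0 UMIs in the control and 1 in the iIRE monocytes, against 180 and 221 CPM in tumor cells. The longest transcripts of Ly6c1 and Ly6c2 shared 802 of 822 aligned bases (97.6%), yet Ly6c1 was almost absent from these Ly6c2-positive cells. Of control and iIRE tumor cells, 61.3% and 63.8% held a Ly6c1 UMI and 1.60% and 3.28% a Ly6c2 UMI. Whether reads were assigned to the wrong gene was not tested.

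Among the 138 cells 6, 1 control and 5 iIRE, were rich in neutrophil granule RNA. Each held at least 100 UMIs of S100a8 and S100a9, the calprotectin subunits, a limit chosen after the values were seen. They held 98.9% of all S100a9 UMIs among the monocytes, 98.5% of S100a8, and every UMI of Ngp (1134), Camp (732) and Ltf (284), which encode granule proteins. No Ccr2 and no Csf1r UMI was found in them, and they held 8 of 1793 Plac8 UMIs. Of the other 132 cells, 118 had Ccr2, 109 had Csf1r and 130 had Plac8. These 6 cells went against the label. All values include them unless stated, and results without them are given for some genes and lists. Without them the shares were 0.241% and 0.473% and their log2 ratio was 0.97.

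Markers of lymphoid and tissue cells were scarce, while macrophage genes were not. The 7 T and NK cell genes and the 4 mast cell and basophil genes had no UMI, for which the exact upper limits per gene were 15.9 CPM in the control and 7.41 CPM in the iIRE monocytes. Plasmacytoid dendritic cell genes summed to 0 and 8.04 CPM, with Siglech, the defining receptor, at 0. Conventional dendritic cell genes summed to 138 and 10.0 CPM, with a UMI in 5 cells of each library and Flt3, Zbtb46, Xcr1 and Clec9a at 0. Of the 10 macrophage genes, 3 were at 0 in the control and 1 in the iIRE monocytes, and their summed level was 3611 and 2949 CPM, against 16697 and 16203 CPM in the C1q-high cells, and 41 of 44 and 84 of 94 monocytes held a UMI of them. Non-classical monocyte genes summed to 1420 and 1141 CPM, of which Nr4a1, also an immediate-early gene, made up 1269 and 926 CPM. Tumor markers summed to 51.8 CPM in the control and 8.04 CPM in the iIRE monocytes, against 381 and 436 CPM in tumor cells. Acinar genes summed to 30.2 and 94.4 CPM, against 105 and 94.1 CPM in tumor cells. Cd209a, a lectin of monocyte-derived dendritic cells, had 25 UMIs in 2 control cells and none in the iIRE library. The summed acinar level stood higher in iIRE, the dendritic and macrophage levels higher in the control, and their part in the results was not tested.

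Among the 20 genes with the highest mean log2 ratio over the C1q-high cells were Hp (haptoglobin), Plac8, Ifitm6, Chil3 and Ms4a4c. All are on a list of 19 monocyte identity genes, 18 of which had at least 100 UMIs in the monocytes. Against the C1q-high cells 12 of the 18 were past 1.5-fold higher in both libraries and 2 lower. Over all 1142 genes with that minimum the shares were 22.2% and 7.44%. Against the neutrophils 10 of the 18 were higher and 2 lower. Hp stood at 729 and 605 CPM (642 and 562 CPM without the granule-rich cells), against 10.2 and 14.2 CPM in C1q-high cells. Ifitm6, an interferon-inducible membrane protein gene, stood at 570 and 534 CPM against 23.5 and 24.3 CPM. Without the granule-rich cells Ifitm6 stood at 424 and 399 CPM. Ms4a4c, a membrane protein gene, stood at 734 and 715 CPM against 42.9 and 58.2 CPM, and had no UMI in the neutrophils. Slfn1 and Slfn4, of the Schlafen family, Gsr (glutathione reductase), Napsa, an aspartic protease gene, and Itgb7, an integrin subunit, had mean log2 ratios of 3.43, 3.23, 3.21, 3.16 and 3.11. S100a8 ranked first, but its mean log2 ratio dropped from 6.95 to 0.81 without the 6 granule-rich cells. Lcn2, Pglyrp1 and Wfdc21 also ranked among the first 20. Without the same cells their mean log2 ratios dropped from 5.73, 3.86 and 3.09 to 1.12, 1.70 and 0.10. All ratios used CPM plus 10, and because the rule selected on C1q they describe the cells and test nothing.

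**Figure D2:**
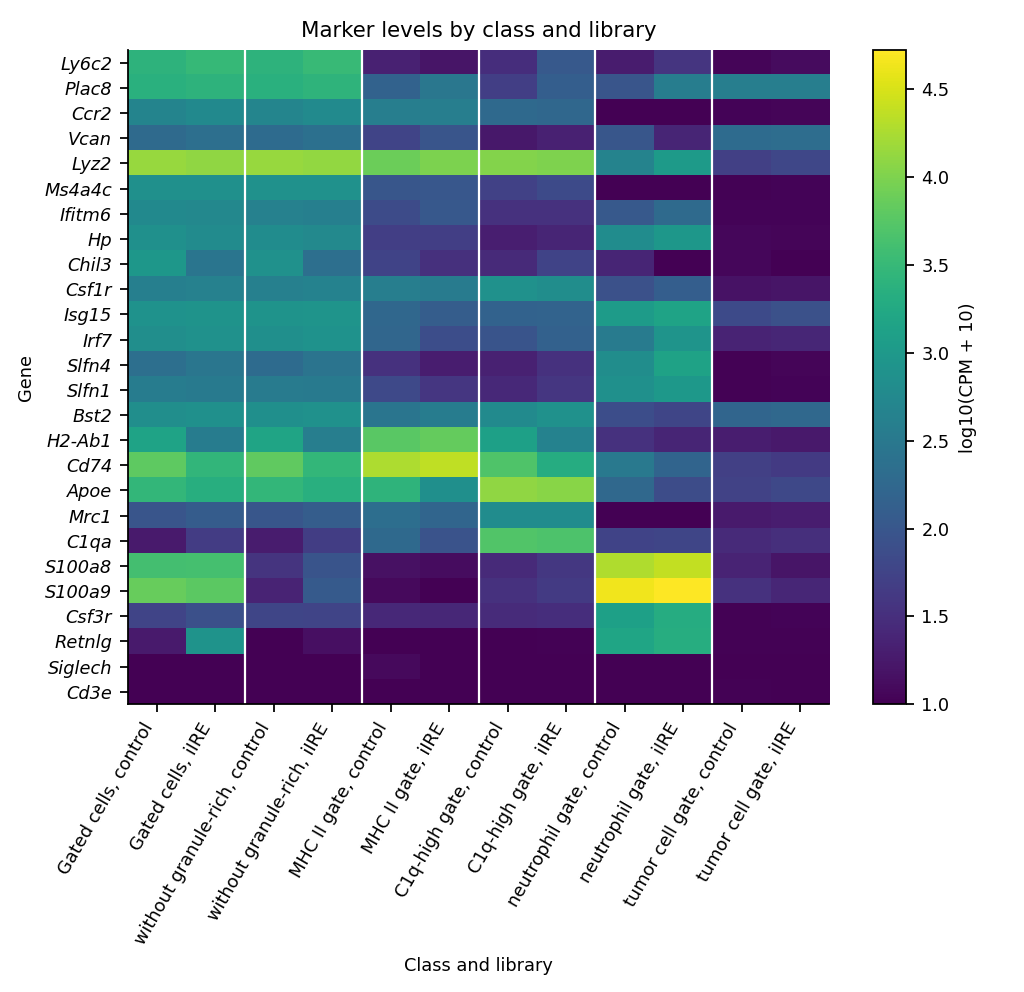
CPM of identity genes in the monocytes and in the comparison sets, with control and iIRE shown separately on a log scale. Plac8 (2257 and 2551 CPM), Ms4a4c (734 and 715 CPM) and Ccr2 (470 and 577 CPM) lie above the C1q-high cells in both libraries.

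Type I interferon-stimulated genes, which encode antiviral and signaling proteins, were higher in the monocytes than in the C1q-high cells. Of 25 genes listed, 13 reached 100 UMIs over both libraries in the monocytes. Of these, 12 were past 1.5-fold higher than in C1q-high cells in both libraries, with a median log2 ratio of 1.90. The minimum was set in the monocytes alone, so it favors genes abundant in them. Among all 1142 genes with the same minimum, 22.2% were past that line upward and 7.44% downward. Isg15, a ubiquitin-like protein, stood at 781 CPM in the control and 810 CPM in the iIRE monocytes, against 137 and 145 CPM. Irf7, a factor that amplifies interferon expression, stood at 686 and 749 CPM, against 82.4 and 133 CPM. Ifitm3, which restricts viral entry, stood at 5877 and 5585 CPM, against 1143 and 1579 CPM. The neutrophils held Isg15 at 1075 and 1444 CPM, so a high level of this gene was shared with them. Over the neutrophils the median log2 ratio of the 13 genes was 0.41. The whole list summed to 15628 and 16125 CPM in the monocytes and to 6847 and 14473 CPM in the neutrophils. A high level of the list was thus shared with the neutrophils in the iIRE library, while the sum in control neutrophils was lower. Over the cells high in MHC class II all 13 genes were past 1.5-fold higher in both libraries, with a median log2 ratio of 2.35.

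Between the libraries, none of its 13 counted genes was past 1.5-fold in either direction in the monocytes, beside 4.38% higher and 3.50% lower over all counted genes, and their median log2 ratio was 0.04, beside 0.01 over all 1142 genes. Ifi27l2a, the most abundant with Ifitm3, had a log2 ratio of 0.19 (0.09 to 0.29) and Isg15 of 0.05 (-0.20 to 0.31). Without the granule-rich cells 1 of the 13 was past the line, lower in iIRE. In the C1q-high cells the median of the list was 0.46. No test of the difference between the 2 sets was possible.

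Promoter bases of 2 interferon-stimulated genes are shown because members of the list stood high together and these 2 promoters held the element marked below. They are the 150 bases before the annotated start, 5′ to 3′ on the gene's strand, from RefSeq on build GRCm38.p6. Capitals mark the core of the interferon-stimulated response element, which is GAAA, any 2 bases and GAAA again, or TTTC, any 2 bases and TTTC on the opposite strand. Isg15 lies on the minus strand (chr4:156200819-156200968) and Bst2, which encodes tetherin, on the minus strand (chr8:71537473-71537622). Overlapping matches run together.
Isg15: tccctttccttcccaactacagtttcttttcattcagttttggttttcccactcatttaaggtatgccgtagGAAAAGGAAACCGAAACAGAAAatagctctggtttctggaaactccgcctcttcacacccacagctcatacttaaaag
Bst2: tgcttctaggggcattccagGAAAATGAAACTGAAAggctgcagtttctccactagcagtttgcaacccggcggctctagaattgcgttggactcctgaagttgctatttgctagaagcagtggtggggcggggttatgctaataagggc
A RefSeq promoter was matched for 18 of the 25 listed genes. In the 300 bases around the start, 8 of these 18 genes (44.4%) held the core on either strand, against 3.99% of all 27025 genes and 3.44% of all 32851 promoters. A match is a description of the letters and not a bound site.

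Between the libraries, 50 of the 1142 genes (4.38%) were past 1.5-fold higher in iIRE monocytes and 40 (3.50%) past 1.5-fold lower. With TMM totals the split was 65 higher and 31 lower. Without the granule-rich cells 46 of the 50 and 33 of the 40 were still past the line. Without the cell of each library that held the most UMIs of the gene, 49 of the higher and 25 of the lower genes were. In the C1q-high cells, which were many more, 0.876% of the same 1142 genes were past the line higher in iIRE and 1.14% lower.

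**Figure D3:**
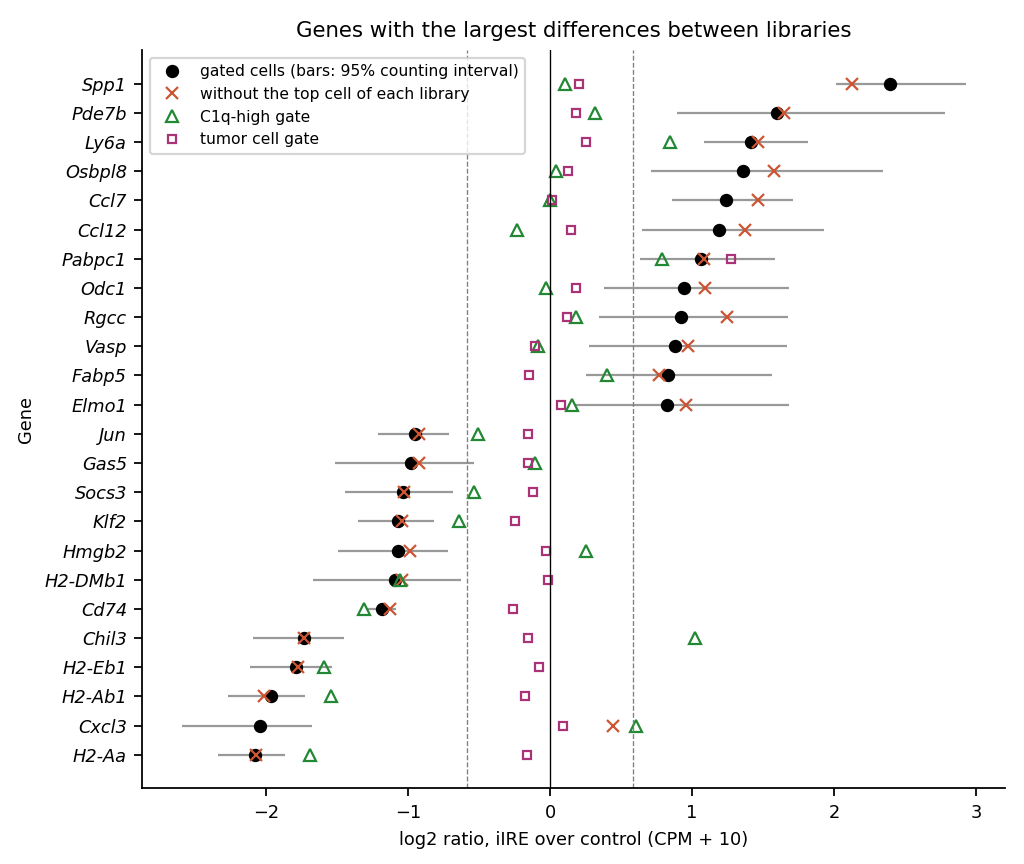
Log2 ratio, iIRE over control, of the 12 named genes with the highest and the 12 with the lowest ratio, with dashed lines at 1.5-fold. Bars are 95% counting intervals. Further markers give the ratio without the highest cell of each library, in the C1q-high cells and in the tumor cells. Spp1, Ly6a and Ccl7 lie on the iIRE side and H2-Aa, H2-Ab1 and Chil3 on the control side.

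Genes of MHC class II, which present peptides to CD4 T cells, were lower in the iIRE monocytes. Of 8 listed genes 6 were counted, 5 were past 1.5-fold lower, and the median log2 ratio was -1.49, beside 3.50% of all counted genes lower and a median of 0.01. H2-Aa, an alpha chain, had 461 UMIs in the control and 231 in the iIRE monocytes, or 1989 CPM (1812 to 2179) and 464 CPM (406 to 528), a log2 ratio of -2.08 (-2.33 to -1.87). H2-Ab1, its partner chain, stood at 1432 and 360 CPM, a log2 ratio of -1.96. H2-Eb1, the beta chain of the second class II molecule, stood at 1143 and 323 CPM, a log2 ratio of -1.79. Cd74, the invariant chain that guides these molecules, stood at 6356 and 2790 CPM, a log2 ratio of -1.18. H2-DMb1, part of the peptide editor, had a log2 ratio of -1.09, whereas its partner H2-DMa had 0.02. The chains that bind peptide and the invariant chain were thus lower together, without H2-DMa.

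Both the share of positive cells and the highest counts were lower in the iIRE library. At least 1 UMI of H2-Aa, H2-Ab1 or H2-Eb1 was found in 22 of 44 control monocytes (50%, 34.6 to 65.4) and in 24 of 94 iIRE monocytes (25.5%, 17.1 to 35.6), with intervals that overlapped narrowly. At least 10 UMIs were found in 13 control and 10 iIRE cells, and the most in 1 cell was 251 and 139. For H2-Ab1 the thinned share was 44.2% and 17.8%, against 3.85% of tumor cells. The size depended on the Ly6c2 limit. With at least 3 Ly6c2 UMIs the log2 ratio of H2-Aa was -1.23, that of H2-Ab1 -1.02, that of H2-Eb1 -0.64 and that of Cd74, no longer past 1.5-fold, -0.54. The C1q-high cells of the same libraries showed H2-Aa at 1604 and 490 CPM and a median of -1.43 for the list. The lower class II level was therefore also present in a set of cells chosen by high C1q. The cells gated by class II are not compared here, since that gate selects on these genes.

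Promoter bases of H2-Aa and H2-Eb1 are shown because these chains were lower together and their promoters held the element marked below. Capitals mark the Y box, CTGATTGG or its reverse complement CCAATCAG, an element of class II promoters. H2-Aa lies on the minus strand (chr17:34287824-34287973) and H2-Eb1 on the plus strand (chr17:34305717-34305866), again as the 150 bases before the start from RefSeq on GRCm38.p6.
H2-Aa: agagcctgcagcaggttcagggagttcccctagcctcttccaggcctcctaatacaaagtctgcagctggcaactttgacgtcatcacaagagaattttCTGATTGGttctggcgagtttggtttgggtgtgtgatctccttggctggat
H2-Eb1: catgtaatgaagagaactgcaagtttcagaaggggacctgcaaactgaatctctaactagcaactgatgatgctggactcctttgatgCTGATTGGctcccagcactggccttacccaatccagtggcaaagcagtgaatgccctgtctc
A RefSeq promoter was matched for 5 of the 8 listed genes, and 2 of the 5 (40.0%) held the box, against 4.70% of all genes and 4.10% of all promoters. Those 2 are the genes shown. H2-DMb1, also past 1.5-fold lower, held no match, and no promoter was matched for H2-Ab1 or Cd74. No statement on binding follows from these letters.

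Among the genes that stood higher in iIRE monocytes, Spp1 had the largest ratio. Spp1 (chr5:104435118-104441050, plus strand) encodes the secreted phosphoprotein osteopontin. The control monocytes held 45 Spp1 UMIs in 14 of 44 cells, and the iIRE monocytes 529 in 42 of 94 cells. Its level was 194 CPM (142 to 260) and 1063 CPM (974 to 1157), a log2 ratio of 2.39 (2.01 to 2.93), and 2.13 without the highest cell of each library. The highest cell held 9 UMIs in the control and 165 in the iIRE library. Tumor cells held Spp1 at 6627 and 7618 CPM, and 98.2% of thinned tumor cells had a UMI, against 25.6% and 31.1% of thinned monocytes. The higher iIRE level was therefore carried by cells with many UMIs more than by the share of positive cells, and the part of tumor RNA in it was not tested.

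Ly6a, the interferon-inducible surface protein also known as Sca-1, had 74 UMIs spread over 20 control monocytes and 431 over 55 iIRE monocytes, or 319 and 866 CPM. It lies at chr15:74994877-74998031 on the minus strand, on the same chromosome as Ly6c2. Its log2 ratio was 1.41 (1.08 to 1.82). In other sets of the same libraries it was 0.85 (C1q-high), 1.43 (class II), 1.84 (neutrophils) and 0.25 (tumor cells). The ratio was thus positive in every gated set, and tumor cells held 976 and 1166 CPM of the RNA.

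Ccl7 and Ccl12, ligands of Ccr2 whose genes lie beside Ccl2 on chromosome 11 (chr11:82045712-82047525, chr11:82101845-82103400 and chr11:82035571-82037453, all plus strand), were also higher. Ccl7 stood at 246 CPM (186 to 319) in the control and 595 CPM (529 to 666) in the iIRE monocytes, a log2 ratio of 1.24, with UMIs in 12 of 44 and 27 of 94 cells. The share of positive cells was 27.3% and 28.7%, and the highest cell held 28 and 114 UMIs. With no Krt8, Krt18 or Cdkn2a UMI allowed, the log2 ratio of Ccl7 was 0.35 and no longer past 1.5-fold. Ccl12 stood at 112 and 269 CPM, a log2 ratio of 1.19. Ccl2, another ligand of the receptor, stood at 2399 and 2344 CPM, a log2 ratio of -0.03 (-0.18 to 0.12), and Ccr2 itself had 0.29 (-0.03 to 0.63). The receptor and its most abundant counted ligand were therefore within 1.5-fold, while the less abundant ligands were past it. Over the chemokine list, 2 of 11 counted genes were higher and 2 lower, beside 4.38% higher and 3.50% lower over all counted genes, and the median was -0.03.

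The other 8 of the 12 highest ratios belonged to genes between 51.8 and 203 CPM in the control monocytes. Pde7b, a cyclic AMP phosphodiesterase, stood at 51.8 and 177 CPM, and Osbpl8, a lipid transfer protein, at 69.0 and 193 CPM. Pabpc1, the poly(A)-binding protein, stood at 203 and 434 CPM, and its log2 ratio of 1.06 was beside 1.28 in tumor cells. Odc1, the first enzyme of polyamine synthesis, Rgcc, a cell cycle regulator, Vasp, an actin regulator, Fabp5, a fatty acid carrier, and Elmo1, an engulfment adaptor, had log2 ratios from 0.83 to 0.94. That of Vasp was 0.65 without the granule-rich cells. Fn1, which encodes fibronectin, stood at 742 and 1223 CPM, a log2 ratio of 0.71. In the lipid list 2 of 4 counted genes, Spp1 and Fabp5, were higher, and in the complement and coagulation list 2 of 6, F10 (0.67) and Cfb (0.65), beside 4.38% of all counted genes.

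Chil3, which encodes a chitinase-like protein secreted by myeloid cells, was lower in iIRE monocytes. It had 213 UMIs spread over 24 control monocytes and 134 over 43 iIRE monocytes, or 919 and 269 CPM, a log2 ratio of -1.73 (-2.09 to -1.45). Without the granule-rich cells it stood at 744 and 221 CPM, a log2 ratio of -1.71. In thinned cells the share with a UMI was 41.9% and 21.1%, against 0.40% of tumor cells. Cxcl3, a neutrophil chemokine, had a log2 ratio of -2.04, but 110 of its 124 control UMIs were in 1 cell, and without the highest cell of each library the ratio was 0.44. The sign of Cxcl3 thus rested on 1 control cell.

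Immediate-early genes, which respond to stimulation within minutes, tended to lie lower. Of 15 counted genes, 5 were past 1.5-fold lower and none higher, beside 4.38% higher and 3.50% lower over all counted genes. The median was -0.33 (-0.51 without the granule-rich cells), and -0.45 in the C1q-high cells. Fos and Dusp1, a phosphatase, were among the 5 with log2 ratios of -0.60, which were -0.55 and -0.51, inside the line, without the highest cell of each library. Klf2, a Krüppel-like factor, stood at 1010 and 476 CPM, Jun at 1126 and 579 CPM, and Fos at 3271 and 2153 CPM. Socs3, an inhibitor of cytokine receptor signaling, stood at 505 and 241 CPM. Gas5, a noncoding host of small nucleolar RNAs, stood at 306 and 151 CPM. Hmgb2, a chromatin protein, had a log2 ratio of -1.07, and -1.68 without the granule-rich cells.

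**Figure D4:**
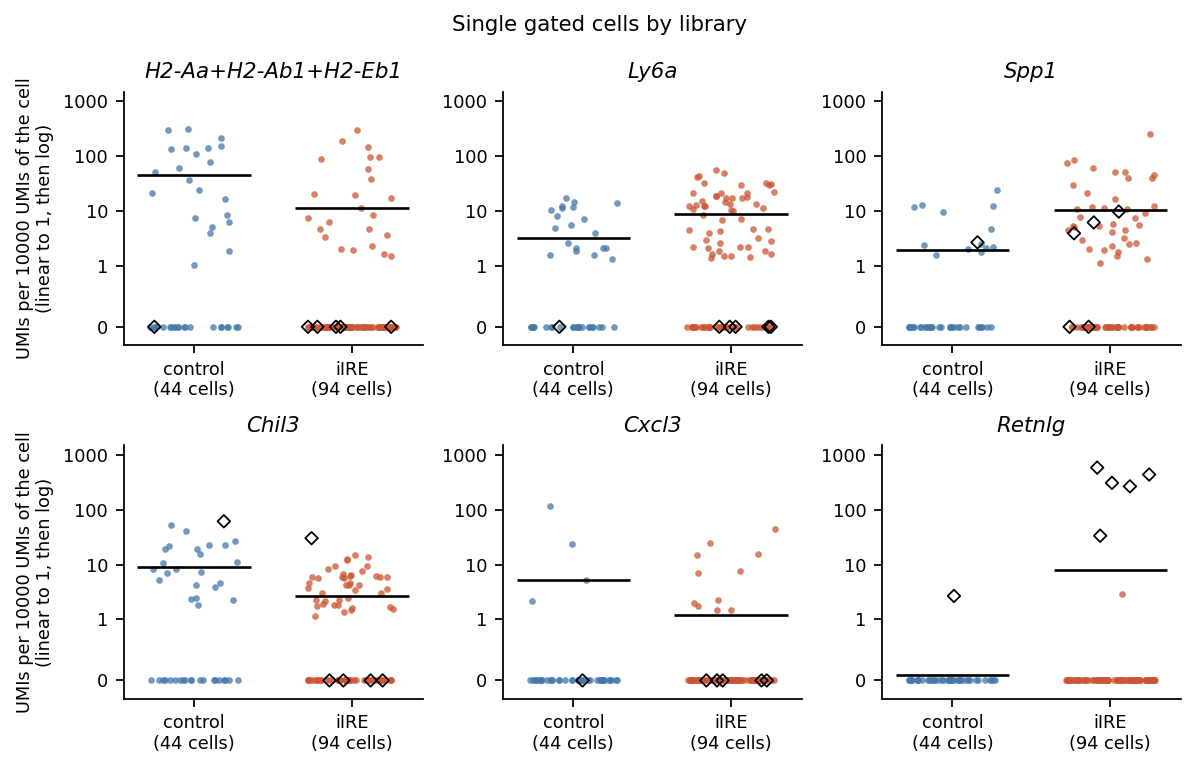
UMIs per 10000 in each monocyte for selected genes, by library, with a black line at the summed level and diamonds for the 6 granule-rich cells. The 3 class II chains were found in 22 of 44 control and 24 of 94 iIRE cells, and the highest Spp1 cell held 9 UMIs in the control and 165 in the iIRE library.

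Several lists had no gene past 1.5-fold, beside 4.38% higher and 3.50% lower over all counted genes, so that a count of 0 in lists of this size is near the background. None of the 12 counted cathepsin and lysosome genes was past the line (median 0.24), nor any of 7 MHC class I genes (-0.03), 6 chemoattractant receptors (0.30), 7 adhesion genes (0.03) and 6 NF-kB genes (0.11). Among inflammatory cytokines, Il1b stood at 2986 and 2917 CPM, while Osm, an interleukin-6 family cytokine, stood at 876 and 581 CPM, a log2 ratio of -0.59 at the line and of -0.51 without the highest cell of each library. Ptgs2, the prostaglandin synthase, stood at 250 and 388 CPM, with a log2 ratio of 0.61 that lay at 0.58, just inside the 1.5-fold line, without the granule-rich cells. Cxcl2, a neutrophil chemokine, stood at 3340 and 4885 CPM, a log2 ratio of 0.55. Of 14 counted hypoxia and glycolysis genes only Vegfa was past the line (-0.94).

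The monocytes were not uniform. Clustering gave 3 subgroups of 54, 45 and 39 cells. The first was led by Arg1, Cxcl3, Cxcl1, Vegfa, Spp1 and Fn1, the second by S100a9, S100a8 and Retnlg and held all 6 granule-rich cells, and the last by H2-Aa, H2-Eb1, H2-Ab1, Ccl7 and Cd74. These genes defined the subgroups, and several of them differed between libraries, so the sizes of the subgroups are not compared between libraries. The last subgroup held little of the marker Vcan, found in 4 of its 39 cells (30.1 CPM), against 233 and 318 CPM in the first and second. It held Ccr2 at 487 CPM and Plac8 at 3028 CPM. Its control cells held H2-Aa at 6630 CPM, near the 6527 CPM of the control cells high in MHC class II. The monocyte label thus fits its cells less fully. Summed interferon-stimulated RNA was 11056 CPM in the first, 19019 CPM in the second and 18992 CPM in the last. The summed hypoxia and glycolysis level was 12293, 6744 and 5253 CPM. These sums follow from the same RNA that was clustered and carry no test.

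Within the subgroups the differences between libraries kept their direction for H2-Aa, Ly6a and Spp1 where a ratio is given. The subgroups were clustered on the same RNA, so these values are a description and no separate support. H2-Aa stood at 722 and 171 CPM in the first subgroup and at 6630 and 1422 CPM in the last, log2 ratios of -2.02 and -2.21. Ly6a had log2 ratios of 0.67, 1.63 and 1.55 in the 3 subgroups, and Spp1 of 1.89 in the first and 1.17 in the second, the latter from 7 and 25 UMIs. Fn1 was higher in the first (1.12) and lower in the others (-0.96 and -1.31). Of these 4 genes, Fn1 alone differed in direction between subgroups, and no ratio is given for H2-Aa in the second subgroup (1 and 0 UMIs) or Spp1 in the last (2 and 82 UMIs), where a library had too few UMIs.

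**Figure D5:**
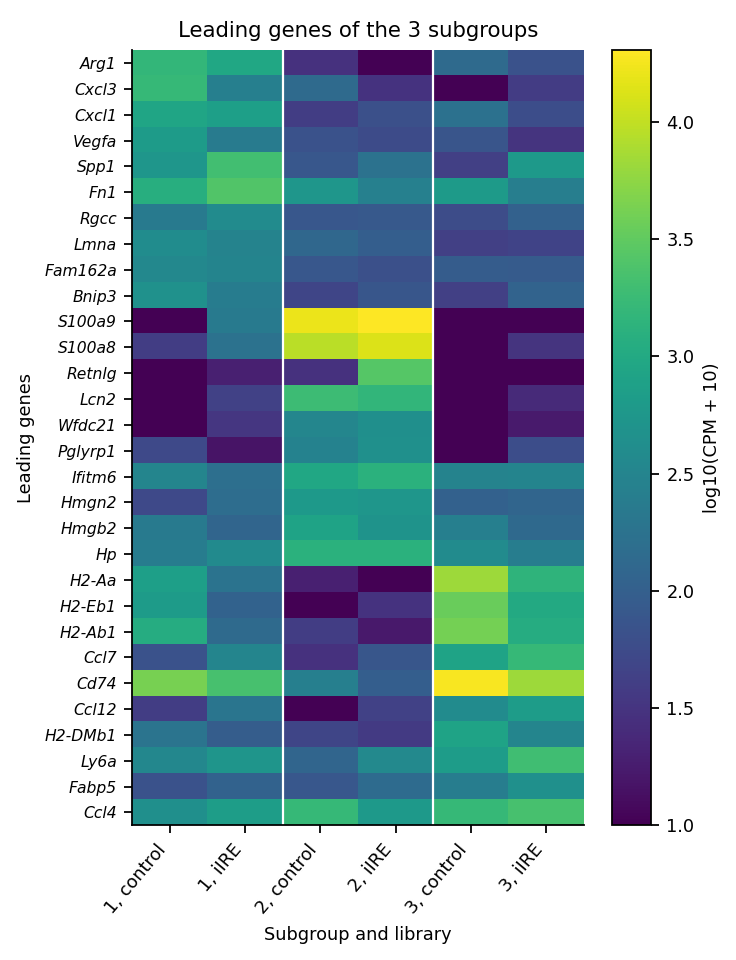
Level of the leading genes, as log10 of CPM plus 10, in each of the 3 subgroups of monocytes and each library. H2-Aa is highest in the last subgroup, at 6630 CPM in the control and 1422 CPM in the iIRE library.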

How the data were processed

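Single-cell RNA of control and iIRE tumors was measured with 10x 5′ chemistry, 1 library per group. The authors deposited raw counts, whole UMIs per gene and cell, and the submitters' processing notes name Cell Ranger, STAR and mm10. No column of values was left unused (0).

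Cells with at least 1000 UMIs, 200 genes and at most 5% mitochondrial UMIs were kept. The monocytes were chosen by the rule given above, and members and gene lists were chosen with earlier results of these data known. UMIs were summed per library and cell set and scaled to CPM, and log2 ratios used CPM plus 10. A gene was counted with at least 100 UMIs over both libraries in the monocytes, and called past 1.5-fold. Named genes were the 12 highest and 12 lowest ratios detected in 10% or more of the monocytes of a library. They were also the 20 highest over the C1q-high cells, the 20 highest over the neutrophils, and the rule genes. For each list those most abundant or most different were named. Ribosomal, mitochondrial, hemoglobin and immunoglobulin genes and gene models were left out of names. With 1 library per group no test was run, and depth limited genes of low level. Subgroups came from Leiden clustering (1500 variable genes, 20 components, 15 neighbors, resolution 0.6). The ratio script was tested on simulated data. Python 3.11.15, scanpy 1.11.5, scipy 1.17.1 and edgeR 4.0.16 (TMM totals only) were used.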

Additional observations from a re-analysis of the deposited data

Results flagged for a closer look

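The following genes had opposite directions in the monocytes and in the C1q-high cells of the same libraries, and with 1 library per group the difference was not tested. Cxcl3 had a log2 ratio, iIRE over control, of -2.04 in the monocytes and 0.61 in the C1q-high cells, but 1 control cell held 110 of its 124 control UMIs, and without the highest cell of each library its ratio in the monocytes was 0.44, the same direction as in the C1q-high cells. Chil3 had a log2 ratio of -1.73 in the monocytes and 1.02 in the C1q-high cells, where it stood at 17.9 and 46.7 CPM.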

How the results depend on the processing

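The larger share of monocytes in iIRE kept its direction and its size within the counting interval under all 12 settings tried (log2 ratio 0.82 to 1.12). The counts of genes past the line depended on the limits. With a pseudocount of 50 CPM 29 genes were higher. With a minimum of 50 UMIs 150 were higher and 104 lower, and with a minimum of 200 UMIs 15 and 25. With a 1.2-fold line 220 and 191 were past it, and with a 2-fold line 8 and 11. With the mean over cells 61 were lower. Under 13 of the 18 settings 45 to 65 genes were higher, and under 13 of 18 there were 29 to 47 lower. Of 456 values of named genes under alternatives, 22 moved beyond the counting interval and 1, Cxcl3, turned its direction, to 0.44 without the highest cells. Clustering at resolution 0.3 gave 1 subgroup and at 1.0 gave 6. Leaving out the granule-rich cells or the highest cells, the study's further cell filters and the myeloid denominator were chosen after seeing the data. Leaving out a replicate was not possible with 1 library per group. No paired analysis was possible because each group has 1 library. Genes under 100 UMIs were beyond the depth.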
